A study of Mus musculus with 4 samples.

Results

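The 10 genes described here encode the core of the Notch2 pathway in splenic B cells. They are the receptors *Notch1* and *Notch2*, the DNA-binding factor *Rbpj*, the coactivators *Maml1*, *Maml2* and *Maml3*, the sugar transferases *Mfng* and *Lfng*, and the known Notch targets *Dtx1* and *Hes1*. They were picked by name as pathway members, and all 10 were found among the 41214 genes of the count table. All 10 had enough reads to be tested.

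RNA-seq was performed on unstimulated B220+ splenocytes of MIZ-1WT and MIZ-1ΔPOZ mice, with 2 libraries labelled as biological replicates per genotype. In MIZ-1ΔPOZ mice a floxed POZ domain of *Zbtb17*, the gene of the transcription factor MIZ-1, is removed by Cre recombinase under control of Mb1, which is *Cd79a* and is active in B cells. The other cells of the spleen thus keep the whole gene. The MIZ-1WT mice are labelled WT, and whether they carried Cre or the floxed allele is not given in the sources used here. All lines were on a C57BL/6 background, the mice were 40 to 70 days old, and cells were selected with an antibody to B220 and magnetic beads, so marginal zone, follicular and other B220+ cells were measured together. In such bulk samples, fewer cells of a type and less RNA per cell cannot be told apart.

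Notch receptors are single-pass membrane proteins. Binding of a Delta or Jagged ligand on a neighbouring cell exposes the receptor to cleavage by ADAM10 and then by γ-secretase, and the freed intracellular domain joins RBPJ and a Mastermind protein on DNA. In the spleen, Notch2 on B cells and its ligand Dll1 on stromal cells are needed for marginal zone B cells, and the fringe enzymes Lfng and Mfng add sugars to the receptor that favour its activation by Delta ligands.

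Upstream sequence is shown for 3 of the genes that passed the test below, because each holds a copy of the core of the known RBPJ binding site. The letters TGGGAA and their reverse complement TTCCCA were searched on the 250 bases before each start site of the RefSeq promoter table (build GRCm38.p6). They were found in 7094 of 32851 windows, which is 21.6%. The table has an entry for 8 of the 10 genes, with 10 windows, of which 5 windows from 4 genes held a match; both windows of *Rbpj* overlap and share 1 of its matches. *Hes1* and *Mfng* have no entry. Each stretch is given 5′ to 3′ on the strand of its gene and has the matches in capitals. It ends where the first annotated GENCODE exon within its window begins. The *Maml3* stretch is chr3:52105077-52105256 on the minus strand, the *Lfng* stretch is chr5:140607091-140607319 on the plus strand, and the *Rbpj* stretch is chr5:53590096-53590213 on the plus strand. The *Rbpj* stretch lies before an internal start site, inside the annotated gene, which begins at 53466152.
Maml3: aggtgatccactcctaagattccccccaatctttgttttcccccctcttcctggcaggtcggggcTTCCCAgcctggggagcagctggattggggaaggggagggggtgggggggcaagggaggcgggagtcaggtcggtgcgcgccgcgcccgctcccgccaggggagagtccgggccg
Lfng: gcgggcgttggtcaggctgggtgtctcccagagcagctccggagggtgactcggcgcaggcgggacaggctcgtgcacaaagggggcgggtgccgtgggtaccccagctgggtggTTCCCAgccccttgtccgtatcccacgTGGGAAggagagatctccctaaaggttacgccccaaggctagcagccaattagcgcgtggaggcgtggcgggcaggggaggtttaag
Rbpj: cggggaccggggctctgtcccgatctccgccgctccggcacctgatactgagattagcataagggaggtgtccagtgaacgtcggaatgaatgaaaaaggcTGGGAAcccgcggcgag
The match of *Maml3* lay 185 bases before the RefSeq start, those of *Lfng* lay 135 and 108 bases before it on opposite strands, and that of *Rbpj* shown here lay 149 bases before it. A further match of *Rbpj*, 65 bases before this start and 205 bases before the start of its other window, lies past the printed stretch and is the one that both windows share. *Maml2*, which did not pass the test, also held a match, in a window inside its annotated gene. Its window at the start of the gene and the window of *Dtx1* held none. A match of 6 letters describes the sequence and does not show a binding site.

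The libraries held between 43026814 and 46387209 counts on genes. *Zbtb17* itself was 47.8 and 46.3 CPM (counts scaled to a common library total) in MIZ-1WT and 37.3 and 38.0 in MIZ-1ΔPOZ, with a log2 fold change of -0.32. The share of reads that fell outside genes was 27.2% and 25.5% in MIZ-1WT and 21.6% and 21.1% in MIZ-1ΔPOZ. *Xist* was at 1.12 and 1.43 CPM in MIZ-1WT and at 801 and 930 CPM in MIZ-1ΔPOZ, and 4 of 4 Y-linked genes were lower in MIZ-1ΔPOZ. The summed level of the Y-linked genes was 848 and 844 CPM in MIZ-1WT and 38.1 and 39.3 CPM in MIZ-1ΔPOZ. The source of the remaining Y-linked reads was not tested. The sex of the mice and the genotype cannot be told apart, and this holds for the 10 genes too, though none lies on a sex chromosome. All 16 macrophage markers were higher in MIZ-1ΔPOZ, with a summed level of 964 and 1290 CPM in MIZ-1WT and of 5768 and 3607 CPM in MIZ-1ΔPOZ; their part in the values of the Notch genes was not tested. Of 10 pan-B cell markers, 8 were lower, with a median log2 fold change of -0.25. *Cd79a*, whose promoter drives Cre, was the lowest of them at -1.44. Without MIZ-1WT replicate 1 or without MIZ-1WT replicate 2, 2 of these 10 markers passed. Of 7 dendritic cell markers 3 were higher and 1 lower, of 5 plasmacytoid dendritic cell markers 1 was higher, of 8 T cell markers 2 were higher, and of 7 tested endothelial markers 2 were higher and 1 lower, with *Emcn* at 0 in every library. None of 7 stromal markers in the table had enough reads to be tested, and *Lum* was at 0 throughout. At the threshold given below, 21.1% of all tested genes were higher and 18.9% were lower.

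The comparison of the genotypes asked whether the RNA of the pathway differed when B cells carried MIZ-1 without its POZ domain. *Dtx1* and *Rbpj* were higher in MIZ-1ΔPOZ, whereas *Maml1*, *Maml3*, *Mfng* and *Lfng* were lower. *Notch1*, *Notch2*, *Maml2* and *Hes1* did not pass the threshold. At an adjusted p of 0.05 in edgeR's quasi-likelihood test, 2 of 10 genes were higher, against a background of 21.1% of the 14554 genes tested, and 4 of 10 were lower, against 18.9%. The median log2 fold change of the 10 genes was -0.17, and that of all tested genes was -0.006. The values of the genotypes did not overlap for 3 genes that were higher and 5 that were lower, where 37.2% and 37.6% of all tested genes did not overlap in these directions.

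**Figure D1:**
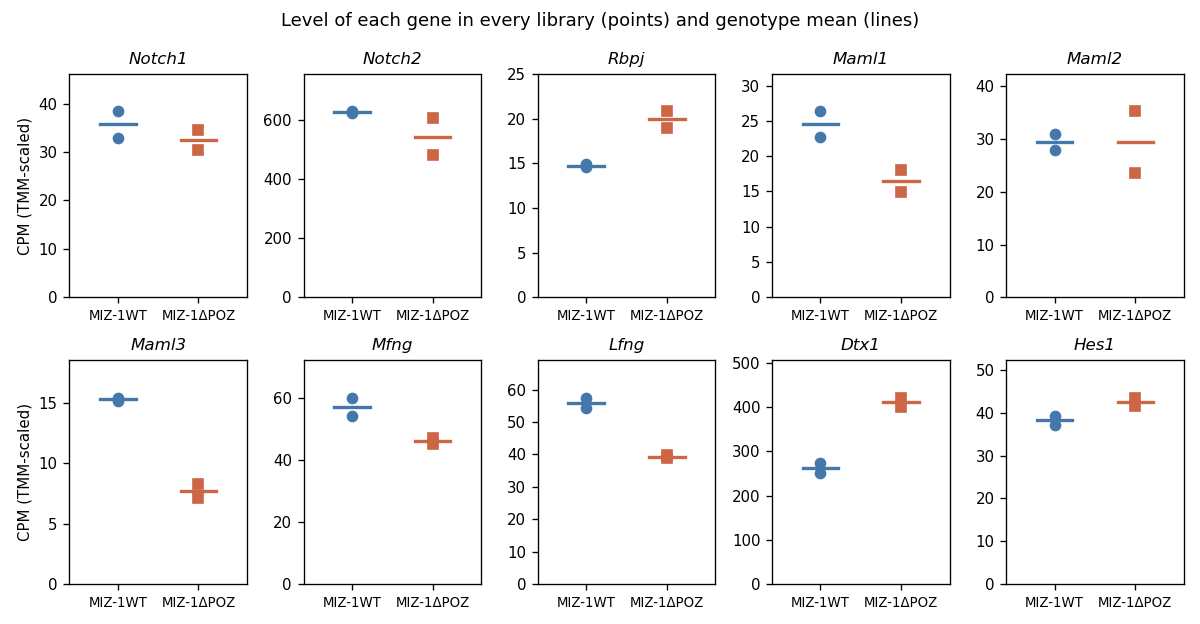
Level of each of the 10 genes in CPM (linear axes from 0) in every library, with circles for MIZ-1WT, squares for MIZ-1ΔPOZ and a line at the mean of the 2 libraries of a genotype. The points of the genotypes are separate for *Dtx1*, *Rbpj*, *Maml1*, *Maml3*, *Mfng*, *Lfng*, *Notch2* and *Hes1* and overlap for *Notch1* and *Maml2*.

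*Notch2* (ENSMUSG00000027878) lies on chromosome 3 from 98013527 to 98150361 on the plus strand (GRCm38, as all positions here). It had 27137 and 26483 counts in MIZ-1WT and 22905 and 26567 in MIZ-1ΔPOZ, or 622 and 630 CPM against 481 and 605 CPM. Both MIZ-1ΔPOZ libraries were below both MIZ-1WT libraries, but replicate 2 by little and replicate 1 by far more. The log2 fold change was -0.20 with a standard error of 0.11 and a 95% interval from -0.47 to 0.06, and the adjusted p of edgeR's test was 0.180. The result turned on the MIZ-1ΔPOZ libraries: without replicate 1 the log2 fold change was -0.04 (adjusted p 0.633), and without replicate 2 it was -0.36 and passed (adjusted p 0.00309, edgeR). MIZ-1ΔPOZ replicate 1 also had the higher summed macrophage markers, 5768 against 3607 CPM, and the part of these cells in the *Notch2* value was not tested. Set against the summed CPM of the 10 pan-B cell markers, *Notch2* was 46.5 and 45.7 per 1000 in MIZ-1WT and 42.9 and 52.5 per 1000 in MIZ-1ΔPOZ, so that the genotypes overlapped. The marker sum was 13387 and 13770 CPM in MIZ-1WT and 11218 and 11528 CPM in MIZ-1ΔPOZ. Dividing by it thus moves every gene up in MIZ-1ΔPOZ relative to MIZ-1WT.

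*Notch1* (ENSMUSG00000026923, chromosome 2, 26457903 to 26516663, minus strand), the receptor best known from T cell development, had 1679 and 1384 counts in MIZ-1WT and 1443 and 1517 in MIZ-1ΔPOZ. The CPM values were 38.5 and 32.9 against 30.3 and 34.6, and the genotypes overlapped. Its log2 fold change was -0.14 with a standard error of 0.10, and the adjusted p was 0.329 (edgeR). Per kilobase of exon, *Notch2* stood at 21.3 and 25.3 times the level of *Notch1* in MIZ-1WT and at 21.0 and 23.1 times in MIZ-1ΔPOZ, and these ratios overlapped. *Notch1* shares 1068 and 414 exonic bases with 2 transcripts on the opposite strand, and *Notch2* shares 541 with an unconfirmed transcript on its own strand; the strand setting of the counting is not given in the sources used here.

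The fringe enzymes *Lfng* and *Mfng* were both lower in MIZ-1ΔPOZ. *Lfng* (ENSMUSG00000029570, chromosome 5, 140607320 to 140615545, plus strand) had 2509 and 2280 counts in MIZ-1WT and 1894 and 1703 in MIZ-1ΔPOZ. These were 57.5 and 54.2 CPM against 39.8 and 38.8 CPM, without overlap. The log2 fold change of *Lfng* was -0.51 with a standard error of 0.06, a fall of its mean level by 29.7%, and the adjusted p was 0.00266 (edgeR). It passed in all 10 alternatives, with log2 fold changes from -0.55 to -0.43.

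*Mfng* (ENSMUSG00000018169, chromosome 15, 78755882 to 78773475, minus strand) had 2629 and 2280 counts in MIZ-1WT and 2153 and 2069 in MIZ-1ΔPOZ. Its CPM values were 60.3 and 54.2 against 45.2 and 47.1. For this gene the log2 fold change was -0.31 with a standard error of 0.07 and an adjusted p of 0.0185 (edgeR), which rose to 0.109 without MIZ-1WT replicate 1, the higher of its libraries. Set against the pan-B cell markers, *Mfng* was 4.50 and 3.94 per 1000 in MIZ-1WT and 4.03 and 4.09 per 1000 in MIZ-1ΔPOZ, and the genotypes overlapped. *Lfng* did not overlap on this scale, with 4.30 and 3.94 against 3.55 and 3.36 per 1000. The ratio of *Lfng* to *Mfng* per kilobase of exon was 1.08 and 1.13 in MIZ-1WT and 0.997 and 0.933 in MIZ-1ΔPOZ. The third fringe gene, *Rfng*, was 8.23 and 7.54 CPM against 6.36 and 5.63 CPM, with an adjusted p of 0.0572.

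**Figure D2:**
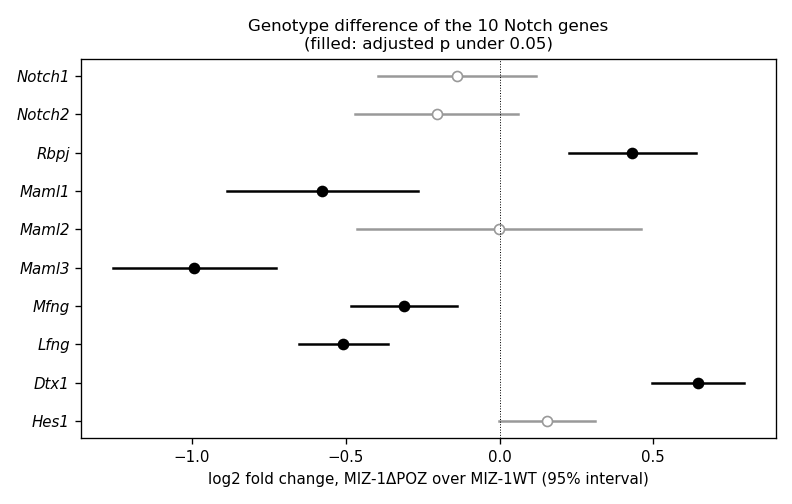
Log2 fold change of each gene, MIZ-1ΔPOZ over MIZ-1WT, from edgeR with its 95% interval; filled points have an adjusted p under 0.05 and open points do not. *Maml3* sits furthest to the left at -0.99 and *Dtx1* furthest to the right at 0.65, and the interval of *Hes1* just reaches 0.

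RBPJ is the DNA-binding factor through which every Notch receptor acts on its targets. *Rbpj* (ENSMUSG00000039191, chromosome 5, 53466152 to 53657362, plus strand) had 639 and 626 counts in MIZ-1WT and 903 and 917 in MIZ-1ΔPOZ. The levels of 14.6 and 14.9 CPM in MIZ-1WT lay below the 19.0 and 20.9 CPM of MIZ-1ΔPOZ. It rose by 0.43 on the log2 scale with a standard error of 0.08, and its adjusted p was 0.0120 (edgeR). The difference was 0.42 without MIZ-1WT replicate 1 and 0.44 without MIZ-1WT replicate 2, and the adjusted p was then 0.0845 and 0.0687.

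The Mastermind-like proteins bind RBPJ together with the Notch intracellular domain and bring in acetyltransferases. *Maml3* (ENSMUSG00000061143, chromosome 3, 51685907 to 52105076, minus strand) had 674 and 639 counts in MIZ-1WT and 340 and 363 in MIZ-1ΔPOZ. Its level was 15.4 and 15.2 CPM against 7.14 and 8.27 CPM. This was the largest difference among the 10 genes, with a log2 fold change of -0.99, a standard error of 0.11 and an adjusted p of 0.00226 (edgeR), and its mean level fell by 49.7%. It passed in each of the 9 alternatives in which it was tested.

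*Maml1* (ENSMUSG00000050567, chromosome 11, 50255634 to 50292311, minus strand), the member of the family that is best known as a Notch coactivator, had 1153 and 953 counts in MIZ-1WT and 709 and 793 in MIZ-1ΔPOZ. The CPM values were 26.4 and 22.7 against 14.9 and 18.1, without overlap. The log2 fold change of *Maml1* was -0.58 with a standard error of 0.13, and the adjusted p was 0.0167 (edgeR), or 0.101 without MIZ-1WT replicate 1. The gene shares 135 exonic bases with an antisense transcript.

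*Maml2* (ENSMUSG00000031925, chromosome 9, 13297957 to 13709388, plus strand) had 1346 and 1176 counts in MIZ-1WT and 1120 and 1550 in MIZ-1ΔPOZ. At 23.5 and 35.3 CPM, the MIZ-1ΔPOZ libraries stood on either side of the 30.8 and 28.0 CPM of MIZ-1WT. The log2 fold change of *Maml2* was -0.0009 with a 95% interval from -0.46 to 0.46, so a change of this size in either direction was within the error (adjusted p 0.997, edgeR). It was 0.27 without MIZ-1ΔPOZ replicate 1 and -0.30 without replicate 2, and the latter passed (adjusted p 0.0405).

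Summed per kilobase of exon, the *Maml* genes stood at 10.4 ± 0.805 CPM per kilobase in MIZ-1WT and 8.17 ± 1.74 in MIZ-1ΔPOZ (SD, n = 2). Against the pan-B cell markers, the log2 ratio of the genotype means was 0.69 for *Rbpj*, -0.32 for *Maml1*, 0.25 for *Maml2* and -0.74 for *Maml3*. Over all 10 genes, 3 were higher without overlap on this scale (*Rbpj*, *Dtx1* and *Hes1*), 3 were lower (*Maml1*, *Maml3* and *Lfng*) and 4 overlapped. The share of all tested genes on this scale was not determined. In CPM, 37.2% of them were higher and 37.6% lower without overlap. The ratio of *Rbpj* to the *Maml* sum was 0.105 and 0.119 in MIZ-1WT and 0.214 and 0.174 in MIZ-1ΔPOZ. The values of this ratio did not overlap. With 2 libraries against 2, an exact permutation test of a single value cannot go below p = 0.333, so the ratios are given without a test.

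*Dtx1* (ENSMUSG00000029603, chromosome 5, 120680202 to 120711927, minus strand) encodes a ubiquitin ligase that binds Notch, and is both a regulator and a target of the pathway. It had 11944 and 10547 counts in MIZ-1WT and 19025 and 18485 in MIZ-1ΔPOZ. The levels were 274 and 251 CPM against 400 and 421 CPM, and the genotypes were clearly apart. *Dtx1* rose by 0.65 on the log2 scale with a standard error of 0.06 and a 95% interval from 0.50 to 0.80, an increase of 56.4%, and the adjusted p was 0.00172 (edgeR). It passed in all 10 alternatives, with log2 fold changes from 0.58 to 0.72. Against the pan-B cell markers it was 20.4 and 18.2 per 1000 in MIZ-1WT and 35.6 and 36.5 per 1000 in MIZ-1ΔPOZ.

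*Hes1* (ENSMUSG00000022528, chromosome 16, 30064384 to 30067796, plus strand), a transcriptional repressor that Notch induces in many tissues, had 1717 and 1559 counts in MIZ-1WT and 1975 and 1911 in MIZ-1ΔPOZ. Its levels were 39.4 and 37.1 CPM against 41.5 and 43.5 CPM. Both MIZ-1ΔPOZ libraries were above both MIZ-1WT libraries by a small margin. Against the pan-B cell markers, a scale that moves every gene up in MIZ-1ΔPOZ, the margin was wider. The values were 2.94 and 2.69 per 1000 in MIZ-1WT and 3.70 and 3.78 per 1000 in MIZ-1ΔPOZ, a log2 ratio of the means of 0.41. The log2 fold change was 0.15 with a standard error of 0.06 and a 95% interval from -0.003 to 0.31, and the adjusted p was 0.105 (edgeR). Over the 6052 genes with a mean of at least 30 RPM (reads scaled without the TMM factor), it was 0.23 and passed (adjusted p 0.0302). The log2 fold changes of all other pathway members kept by this filter also moved up. *Notch1* went from -0.14 to -0.06, *Notch2* from -0.20 to -0.13 and *Mfng* from -0.31 to -0.23. *Lfng* went from -0.51 to -0.43 and *Dtx1* from 0.65 to 0.72. Whether *Hes1* would pass over these genes without this shared shift was not tested. The log2 fold changes of *Dtx1* and *Hes1* have 95% intervals that do not overlap.

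**Figure D3:**
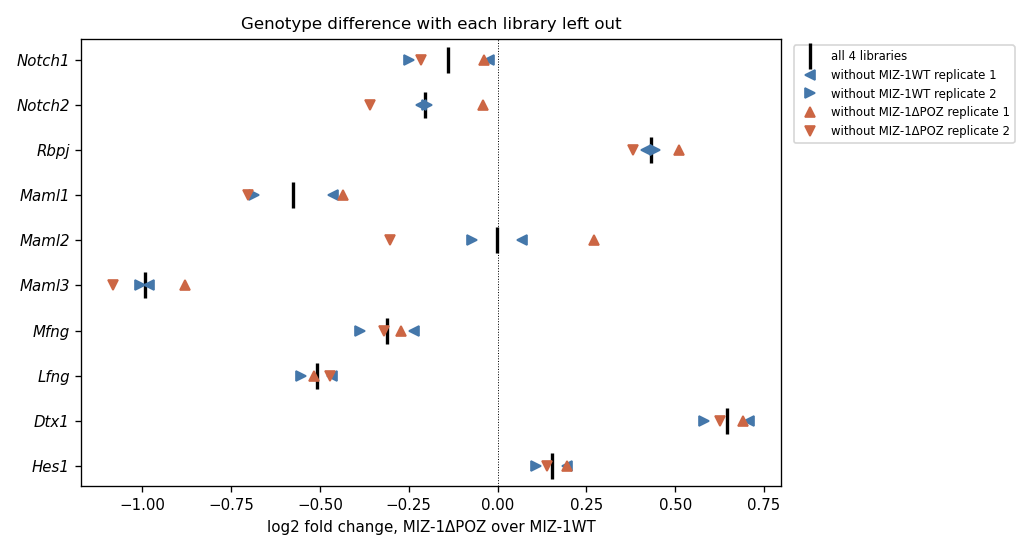
Log2 fold change of each gene with all 4 libraries (vertical bars) and with each library left out in turn (triangles; blue for a MIZ-1WT library, orange for a MIZ-1ΔPOZ library). *Maml2* moves from -0.30 to 0.27 and *Notch2* from -0.36 to -0.04 with the choice of MIZ-1ΔPOZ library, and of the 10 genes *Maml2* alone crosses 0.

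Per kilobase of exon, a scale that lets genes be compared roughly, the 10 genes covered a wide range of levels. The length used merges the exons of all annotated transcripts of a gene. Which of these transcripts were made was not determined, so the ranks and ratios between genes depend on this choice. In MIZ-1WT, *Notch2* was the highest at 58.1 ± 0.525 CPM per kilobase (SD, n = 2), followed by *Dtx1* at 49.8 ± 3.07. *Lfng* at 22.3 ± 0.923, *Mfng* at 20.2 (21.2 and 19.1 in its libraries) and *Hes1* at 18.8 ± 0.787 came next, and the libraries of *Mfng* and *Hes1* overlapped. *Maml2* at 4.46 ± 0.308 and *Maml1* at 4.44 ± 0.480 did not differ beyond their spread. *Notch1* at 2.51 ± 0.276, *Maml3* at 1.46 ± 0.0167 and *Rbpj* at 1.16 ± 0.0136 were the lowest. In MIZ-1ΔPOZ the order changed at both ends. *Dtx1* at 77.9 ± 2.88 CPM per kilobase stood above *Notch2* at 50.4 ± 8.13, and *Rbpj* at 1.56 ± 0.106 stood above *Maml3* at 0.735 ± 0.0760. *Hes1* at 20.9 ± 0.710 passed *Mfng* at 16.3 ± 0.474 and *Lfng* at 15.7 ± 0.280, and the nearest libraries of the last pair were both at 15.9. The ratio of *Dtx1* to *Notch2* was 0.900 and 0.815 in MIZ-1WT and 1.70 and 1.42 in MIZ-1ΔPOZ.

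**Figure D4:**
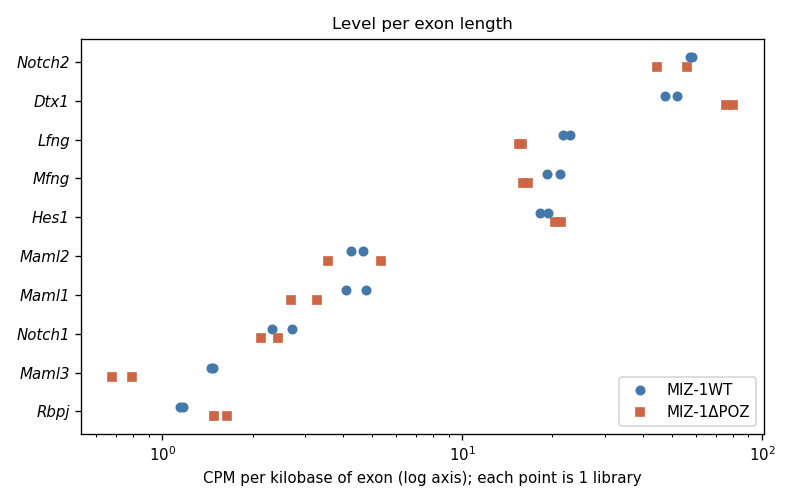
Level of each gene per kilobase of exon (log axis, CPM per kilobase), with 1 circle per MIZ-1WT library and 1 square per MIZ-1ΔPOZ library, in the order of the MIZ-1WT means. *Notch2* and *Dtx1* lie near 50 and above, and *Rbpj* and *Maml3* change places between the genotypes.

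A list of 62 other genes of the pathway was examined, of which 54 had enough reads to be tested. In MIZ-1ΔPOZ 11 were higher and 16 were lower, where the background was 21.1% and 18.9%, and the median log2 fold change was -0.07. These counts rested on both MIZ-1WT libraries: they were 3 and 2 without MIZ-1WT replicate 1 and 3 and 6 without MIZ-1WT replicate 2. Of the 27 genes, 4 passed in every alternative in which they were tested, namely *Neurl3*, *Nedd4*, *Ep300* and *Aph1c*.

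Among the ligands, *Jag1* rose and 3 of 5 had enough reads to be tested. *Jag1* had 17 and 12 counts in MIZ-1WT and 58 and 32 in MIZ-1ΔPOZ, a log2 fold change of 1.52 (adjusted p 0.0274, edgeR). The higher of its MIZ-1ΔPOZ libraries was the one with the higher macrophage markers, and their part in the value was not tested. *Jag1* did not pass in DESeq2 (adjusted p 0.0562), nor without MIZ-1WT replicate 1 (0.0857), MIZ-1WT replicate 2 (0.125) or MIZ-1ΔPOZ replicate 1 (0.105). *Dll1*, the ligand for Notch2 in the spleen, was 5.32 and 4.23 CPM in MIZ-1WT and 4.52 and 4.46 CPM in MIZ-1ΔPOZ. *Dll4* had between 1 and 13 counts per library and *Dll3* between 0 and 4. Of the ubiquitin ligases that act on ligands, *Neurl1b* rose by 1.06 on the log2 scale, *Neurl3* fell by 0.66 and *Mib2* fell by 0.36. *Neurl3* was 108 and 106 CPM in MIZ-1WT and 62.0 and 72.5 CPM in MIZ-1ΔPOZ. *Mib1*, which is required in ligand-bearing cells, was 97.4 and 97.8 CPM against 121 and 106 CPM (adjusted p 0.0549).

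The other receptors had few counts. *Notch4* had 77 and 71 counts in MIZ-1WT and 44 and 41 in MIZ-1ΔPOZ, with a log2 fold change of -0.89 (adjusted p 0.0212, edgeR). It did not pass when any 1 library was left out, nor in DESeq2 (adjusted p 0.0876). *Notch3* had 15 and 20 counts against 17 and 20 counts. Of 6 tested enzymes that add sugars to Notch, besides *Lfng* and *Mfng* above, 2 passed as higher and none as lower, against a background of 21.1% and 18.9%. *Pofut1*, the fucosyltransferase that the fringe enzymes build on, rose by 0.18 and *Eogt* rose by 0.35 on the log2 scale. Neither passed without MIZ-1WT replicate 1 (adjusted p 0.175 for *Pofut1* and 0.0733 for *Eogt*) or without MIZ-1WT replicate 2 (0.135 and 0.114).

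Of 10 tested genes of receptor cleavage, 2 rose and 2 fell, near the background of 21.1% and 18.9%. The main protease of the ligand-induced cut, *Adam10*, was 86.3 and 83.5 CPM in MIZ-1WT and 75.0 and 89.7 CPM in MIZ-1ΔPOZ (adjusted p 0.722). *Furin*, which processes the receptor on its way to the surface, fell by 0.45, and *Psen2* fell by 0.18 on the log2 scale. *Furin* did not pass with the trend on GC content and length removed (adjusted p 0.0592), without MIZ-1ΔPOZ replicate 1 (0.0790) or without MIZ-1WT replicate 1 (0.220), where it was -0.30. *Psen2* passed in 4 of 10 alternatives, and not in DESeq2 (0.0547), at 30 RPM (0.110) or without either MIZ-1WT library (0.151 and 0.168). The γ-secretase subunits *Aph1b* and *Aph1c* rose by 0.73 and 1.87, but these are near-identical copies whose reads could be split between them, so both values are uncertain.

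Of 10 genes of receptor turnover, 4 rose and 2 fell, against a background of 21.1% and 18.9%. *Dtx4* rose by 0.75, *Dtx3* by 0.45 and *Dtx3l* by 0.27 on the log2 scale, and *Dtx1* above also rose. *Dtx4* and *Dtx3* each passed in 8 of 9 alternatives and *Dtx3l* in 8 of 10. *Dtx2*, the other Deltex gene of the list, was 25.0 and 22.2 CPM against 18.3 and 21.3 CPM (adjusted p 0.104). *Nedd4*, a ubiquitin ligase, rose by 0.63, from 155 and 136 CPM to 214 and 237 CPM. *Itch*, a related ligase, fell by 0.22 and *Aak1*, an endocytic kinase, fell by 0.48. *Nedd4* passed in 10 of 10 alternatives, *Itch* in 7 of 10 and *Aak1* in 7 of 9.

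Of the 5 coactivators outside the *Maml* family, 2 were lower and 0 higher, against a background of 18.9% lower and 21.1% higher. The 2 were *Ep300* and *Crebbp*, whose acetyltransferases Mastermind proteins recruit. *Kat2a* and *Kat2b*, which also encode acetyltransferases, did not pass, with log2 fold changes of 0.13 and 0.004. *Ep300*, which encodes p300, was 191 and 172 CPM in MIZ-1WT and 111 and 130 CPM in MIZ-1ΔPOZ, with a log2 fold change of -0.59 (adjusted p 0.00573, edgeR). *Crebbp* was 148 and 130 CPM against 84.9 and 106 CPM, with a log2 fold change of -0.54 (adjusted p 0.0161, edgeR, or 0.0967 without MIZ-1WT replicate 1). Of the 12 corepressors, 7 fell and 1 rose, against a background of 18.9% lower and 21.1% higher. Among them, *Tle1* fell by 0.63, *Cir1* by 0.52, *Spen* by 0.44, *Tle3* by 0.34, *Ncor1* by 0.30 and *Kdm5a* by 0.17 on the log2 scale. *Tle1* and *Cir1* each passed in 7 of 9 alternatives, *Spen* in 8 of 10, *Ncor1* in 7 of 10, *Tle3* in 6 of 10 and *Kdm5a* in 4 of 10. SPEN and NCOR1 hold RBPJ targets silent where Notch is not active. *Spen* shares 41 exonic bases with *Zbtb17* on the opposite strand. *Ctbp2* rose by 1.84, from 41 and 39 counts to 211 and 98 counts, and passed in 7 of 9 alternatives. It shares 314 exonic bases with *Fgfr2*, and the part of the macrophage signal in its value was not tested.

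**Figure D5:**
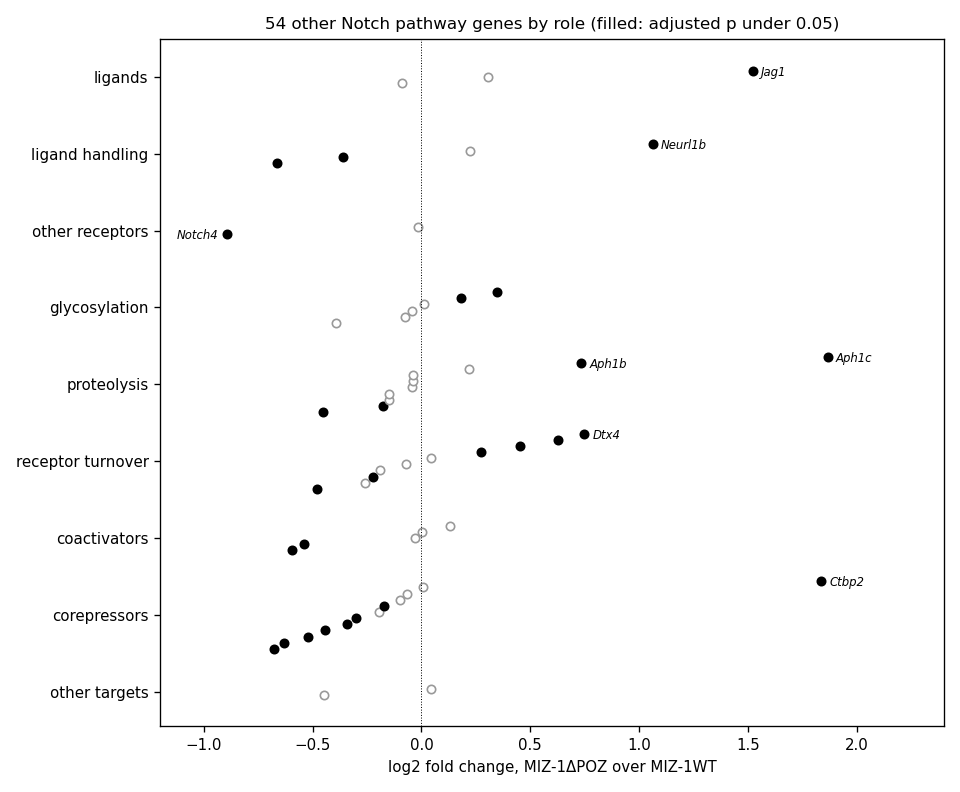
Log2 fold change, MIZ-1ΔPOZ over MIZ-1WT, of the 54 other pathway genes tested, in rows by role; filled points have an adjusted p under 0.05 in edgeR and open points do not. Filled points lie mostly left of 0 in the corepressor row (7 lower, 1 higher) and mostly right of 0 in the turnover row (4 higher, 2 lower). Over all tested genes, 21.1% were higher and 18.9% were lower.

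The other classical targets did not pass. *Hes5* was 6.30 and 6.02 CPM in MIZ-1WT and 6.11 and 6.61 CPM in MIZ-1ΔPOZ (adjusted p 0.795). *Nrarp*, a feedback inhibitor that Notch induces, was 4.19 and 4.07 CPM against 3.07 and 2.98 CPM (adjusted p 0.0586), and 2051 of its exonic bases are shared with an antisense transcript. *Hes7*, *Hey1*, *Hey2* and *Heyl* had too few reads to be tested, with 17 counts at most in a library. Hence, of the 4 target genes with enough reads, *Dtx1* was the one that passed, where 21.1% of all tested genes passed as higher.

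Markers of the B cell subsets moved with the genotype beside these genes. All 8 of 8 marginal zone markers were higher in MIZ-1ΔPOZ, with a median log2 fold change of 0.82, against a background of 21.1% of genes higher. Their summed level was 2729 and 2706 CPM in MIZ-1WT and 3480 and 3717 CPM in MIZ-1ΔPOZ. *Cr2*, the CD21 gene that is also known to respond to Notch2, had the smallest change at 0.25 and *Asb2* the largest at 1.82. *Cd1d1* was 80.8 and 86.0 CPM against 127 and 138 CPM, a log2 fold change of 0.67, close to that of *Dtx1*. *Cd9*, *S1pr3*, *Fcrl5*, *Mzb1* and *Cd36* rose by 1.22, 0.76, 0.89, 0.73 and 0.90. Of the follicular markers 3 of 4 tested were lower, against a background of 18.9% of genes lower. *Klf2* fell by 0.92, *Fcer2a*, the CD23 gene, fell by 0.74 and *Ccr7* fell by 0.51. *Cr2* did not pass without MIZ-1WT replicate 1, MIZ-1WT replicate 2 or MIZ-1ΔPOZ replicate 2 (adjusted p 0.141, 0.117 and 0.0596), *S1pr3* did not without MIZ-1WT replicate 2 (0.0558), and *Fcer2a* did not without MIZ-1WT replicate 1 or 2 (0.0569 and 0.0585). *Ighd* was not analysed here. The part of the subset shares in the values of the Notch genes was not tested. Nor was the part of the macrophage signal, also higher in MIZ-1ΔPOZ, in the values of these subset markers.

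The genes whose levels followed *Notch2* most closely over the 4 libraries were sought by the distance of centred log2 CPM among 8503 protein-coding genes with a mean of at least 10 CPM. *Notch2* stood at 0.10, 0.12, -0.27 and 0.06 around its own mean in MIZ-1WT replicates 1 and 2 and MIZ-1ΔPOZ replicates 1 and 2. *Eif4g3* was the nearest at a distance of 0.0278, followed by *Sh3bgrl3* at 0.0350 and *Efcab14* at 0.0378. *Eif4g3* had 107 and 108 CPM in MIZ-1WT and 84.4 and 104 CPM in MIZ-1ΔPOZ.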

How the data were processed

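RNA-seq of B220+ splenocytes, 2 libraries of MIZ-1WT and 2 of MIZ-1ΔPOZ, was analysed. The authors depleted ribosomal RNA, made stranded libraries, trimmed paired reads with Trimmomatic, mapped them to mm10 with TopHat2 (version 2.1.0 per the labels) and counted them on Ensembl genes with HTSeq. The deposited values are raw counts, neither normalized nor pooled. The summary lines for reads outside genes, ambiguous reads (0.281% to 0.302%) and reads without a unique alignment (42.8% to 44.1%) were left out of library sizes.

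Symbols, positions and merged exon lengths were taken from GENCODE for GRCm38, which named 40340 of 41214 genes. The 14554 genes that reached 10 counts in 2 or more libraries were compared with edgeR version 4.0.16 in R version 4.3.3, using TMM factors (0.977 to 1.03) and its quasi-likelihood test. P-values were adjusted after Benjamini and Hochberg across these genes, with a threshold of 0.05. The common dispersion was 0.00848. CPM are counts scaled by TMM library sizes; centred log2 CPM used a prior count of 2. Levels per kilobase of exon and ratios were described without a test. The procedure was tested on simulated data. P-values set the genotype difference against the spread of the 2 libraries within each genotype. The estimate of this spread draws in part on all tested genes.

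All 10 pathway members were named, with other pathway genes past the threshold, the receptors and targets, the subset markers, the 3 genes nearest to *Notch2*, *Zbtb17*, *Xist* and the Y-linked genes. *Rfng*, *Dll1*, *Mib1*, *Adam10*, *Dtx2*, *Kat2a*, *Kat2b* and *Cd79a* were added for their roles after their values were seen. A few listed genes are not reported here. The members and lists were chosen with earlier results of these data known. Alternatives were DESeq2's size factors in edgeR, DESeq2 version 1.42.0, no filter, a filter at a mean of 30 RPM, a block on the replicate number, leaving out each library and, chosen after seeing the data, correction of each library for trends with GC content and length. The values per pan-B cell marker level, and the motif and stretches shown, were also chosen after seeing the data.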

Additional observations from a re-analysis of the deposited data

How the results depend on the processing

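Of 96 recomputed values of the 10 genes, 85 kept their direction and side of the threshold, 3 newly passed, 4 no longer passed and 4 turned direction. The turned values all belong to *Maml2*, whose log2 fold change is near 0: 0.000399 with DESeq2's size factors, 0.000908 in DESeq2, and, with 1 library left out, from -0.30 to 0.27. *Notch3* turned to 0.0583 with the trend on GC content and length removed and ranged from -0.23 to 0.23 with 1 library left out, and *Hes5* turned to -0.0239 with that trend removed. The filter at 30 RPM left 6 of the 10 genes and 6052 in all; 2746 genes passed (1464 higher, 1282 lower), with 2 of the 10 genes and 6 other pathway genes lower and 4 other pathway genes higher. With 1 library left out, between 2222 and 5580 genes passed (1374 to 2955 higher, 848 to 2625 lower), of the 10 genes 1 to 2 higher and 2 to 6 lower, of the other pathway genes 3 to 12 higher and 2 to 16 lower, and of the pan-B cell markers 2 to 7 lower; the lone library of a genotype was then assumed to vary like the other pair, and the low ends came without MIZ-1WT replicate 1 or 2. DESeq2 called 5082 genes. Whether same-numbered libraries were paired is not given in the sources used here. The correlation over genes between same-numbered deviations was -0.07, which as a single value cannot decide it. With a replicate block, 4732 genes passed (2633 higher, 2099 lower), with 2 of the 10 genes higher and 4 lower. The other pathway genes then numbered 10 higher and 13 lower, and *Pofut1*, *Furin*, *Psen2* and *Kdm5a* did not pass (adjusted p 0.0776, 0.0619, 0.0820 and 0.0692).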
